A study of Homo sapiens with 10 samples.

Results

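Metallothioneins are small cysteine-rich proteins that bind zinc and copper, and their genes were followed here together with the gene of their zinc-sensing activator, MTF1, and the gene of the zinc exporter SLC30A1 (ZnT1). The 10 genes were chosen by symbol: MT1A, MT1E, MT1F, MT1G, MT1H, MT1M, MT1X, MT2A, MTF1 and SLC30A1. The expression table held 34567 genes, and 9 of the 10 had a row in it. Expression of MT1H was not analysed here. The study sequenced polyA-selected RNA from a pair of established human glioblastoma lines to find genes that respond to the homeobox transcription factor MEOX2. SNB19 cells received either a scrambled siRNA (NC, 3 libraries) or an siRNA against MEOX2 (siMEOX2, 3 libraries), by transient lipid transfection. The paper lists 2 siRNAs against MEOX2, and the labels did not say which was used here. Effects particular to that siRNA cannot be told apart from loss of MEOX2. U87 cells carried either an empty lentiviral vector (EV, 2 libraries) or a MEOX2 expression lentivirus (OE, 2 libraries), as puromycin-selected populations. The labels did not say whether libraries of a group came from separate cultures, so p-values measure only the spread between these libraries, which may be technical.

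Metallothioneins buffer free zinc and sequester cadmium and surplus copper. When zinc rises, MTF1 binds metal response elements in the promoters of metallothionein genes and of SLC30A1, so that the metal is both bound inside the cell and pumped out across the plasma membrane. Metallothionein genes are also induced by glucocorticoids, and MT2A is usually the most abundant isoform in human cells.

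In GENCODE v29 on GRCh38 the metallothionein genes lie side by side on chromosome 16. MT2A occupied chr16:56608199-56609497, MT1E chr16:56625475-56627112, MT1M chr16:56632233-56633986, MT1A chr16:56638666-56640087, MT1F chr16:56657694-56660698 and MT1X chr16:56682424-56684196, all on the plus strand, and MT1G lay at chr16:56666731-56668065 on the minus strand. MTF1, at chr1:37809567-37859620, and SLC30A1, at chr1:211571568-211578742, were both on the minus strand of chromosome 1. The coding sequences of 3 metallothioneins are shown from the GENCODE transcripts because they are the part in which family members are hardest to tell apart. Cysteine codons are in capitals, and each sequence has 20 of them among 61 codons.
MT2A: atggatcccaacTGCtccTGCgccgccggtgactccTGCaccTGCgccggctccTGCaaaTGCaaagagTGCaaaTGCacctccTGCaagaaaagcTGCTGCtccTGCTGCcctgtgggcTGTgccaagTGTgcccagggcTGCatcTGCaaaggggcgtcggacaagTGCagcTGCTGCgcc
MT1E: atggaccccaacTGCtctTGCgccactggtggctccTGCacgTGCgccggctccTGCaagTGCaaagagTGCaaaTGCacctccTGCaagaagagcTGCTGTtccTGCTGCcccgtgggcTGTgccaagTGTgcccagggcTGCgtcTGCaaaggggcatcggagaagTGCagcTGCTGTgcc
MT1F: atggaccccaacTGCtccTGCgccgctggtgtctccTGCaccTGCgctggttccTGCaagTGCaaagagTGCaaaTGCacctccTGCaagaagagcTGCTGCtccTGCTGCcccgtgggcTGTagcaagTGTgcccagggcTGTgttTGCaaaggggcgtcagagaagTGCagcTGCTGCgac

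MT2A and MT1E shared 169 of 183 aligned coding bases (92.4%), and MT1F and MT1X, the least alike pair of the 8 genes, shared 162 (88.5%). Exact stretches of 150 bases were nevertheless distinct. Of all 150-base windows of the first transcript of each gene, none was shared with another GENCODE gene except 5.65% of those of MT1X. These belonged to AC026461.1, a gene on the same strand whose exons covered 36.7% of the first MT1X transcript, so MT1X counts are uncertain. Matches with mismatches, and exons outside the first transcript, were not searched. How specific the aligned reads were was therefore not tested.

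Promoter windows of 250 bases before the RefSeq start site (GRCh38.p14) were searched for the metal response element core, TGCACNC or TGCGCNC, on both strands. Of the 10 genes, 5 had an entry: MT2A, MT1X, MT1H, MTF1 and SLC30A1. The MT2A window held 7 matches, MT1H 8, MT1X 4, SLC30A1 1 and MTF1 none. Among all 35116 such windows, 24.8% held at least 1 match, 0.370% at least 4 and 0.0513% at least 6. A match is a run of letters and not a shown binding site. The sequences below are written along each gene's own strand, with the matches they hold in capitals. They leave out part of the 7 MT2A matches and the whole MT1H window. The MT2A stretches lie 157 to 128, 98 to 70 and 64 to 36 bases before the RefSeq start, a region that GENCODE v29 places inside a longer first exon. The SLC30A1 window lies before a RefSeq start that is upstream of the GENCODE v29 start of that gene, so its match depends on the start site used.
MT2A, chr16:56608427-56608456: cgggTGCGCCCggcccagTGCGCGCggccg
MT2A, chr16:56608486-56608514: agcgcggggcGTGTGCAggcagcgcccgg
MT2A, chr16:56608520-56608548: gcggggctttTGCACTCgtcccggctctt
MT1X, chr16:56682220-56682423: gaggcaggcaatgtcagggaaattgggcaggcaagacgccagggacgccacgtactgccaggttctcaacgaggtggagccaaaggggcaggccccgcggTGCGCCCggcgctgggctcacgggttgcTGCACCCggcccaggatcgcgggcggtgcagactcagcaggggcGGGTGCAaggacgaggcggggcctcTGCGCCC
SLC30A1, chr1:211579162-211579411: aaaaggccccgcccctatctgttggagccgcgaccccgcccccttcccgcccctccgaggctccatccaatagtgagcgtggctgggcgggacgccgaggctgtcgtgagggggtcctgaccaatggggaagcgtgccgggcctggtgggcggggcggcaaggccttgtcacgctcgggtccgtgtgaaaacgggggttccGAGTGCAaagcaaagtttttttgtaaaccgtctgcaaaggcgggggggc

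MEOX2 itself was read first as a check of the labels. It had 249, 224 and 275 counts in the NC libraries and 54, 40 and 49 in the siMEOX2 libraries, a log2 fold change of -2.41 (SE 0.14, FDR 1.35e-11, edgeR). In U87 cells MEOX2 had 0 counts in both EV libraries, against 4999 and 5308 in the OE libraries, at least 3821-fold more when 3 counts over the EV group are taken as the floor. Library totals ran from 12533775 to 16560324 counts, so 3 counts correspond to between 0.181 and 0.239 CPM, the unit that scales a gene's counts to the library total. Among the markers of the lines, VIM lay between 420 and 3545 CPM and led in 8 of the 10 libraries. In the OE libraries CD44 was higher, at 694 and 661 CPM against 605 and 613 CPM of VIM. GFAP did not exceed 4.81 CPM in any library, and SOX2, at 13.0 to 36.3 CPM in SNB19 cells, did not exceed 0.239 CPM in U87 cells. Of 5 leukocyte markers, 4 stayed under 1 CPM in every library.

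One library stood apart from the others. In U87 EV replicate 1, genes shorter than 2 kb took 18.7% of all counts, against 9.29% to 10.8% in the other 9 libraries. Relative to EV replicate 2, the median log2 ratio was 1.02 for genes under 1 kb, 0.74 for 1 to 2 kb, -0.16 for 2 to 5 kb and -0.93 for genes over 5 kb. The metallothionein genes are short and followed this trend: MT2A was 3.76 times, MT1E 3.33 times, MT1M 3.03 times, MT1X 2.67 times and MT1F 2.52 times as high in replicate 1 as in replicate 2, in CPM. Each exceeded most genes of its own length class in this ratio: MT2A 93.4%, MT1E 88.8%, MT1X 77.9%, MT1F 74.1% and MT1M 72.7% of them. The long genes MTF1 and SLC30A1 went the other way, at 0.353 and 0.387 times the level of replicate 2. The changes of the metallothioneins, MTF1 and SLC30A1 that involve U87 EV cells are therefore given with and without replicate 1, and the part of the library itself in these results was not tested further.

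**Figure D1:**
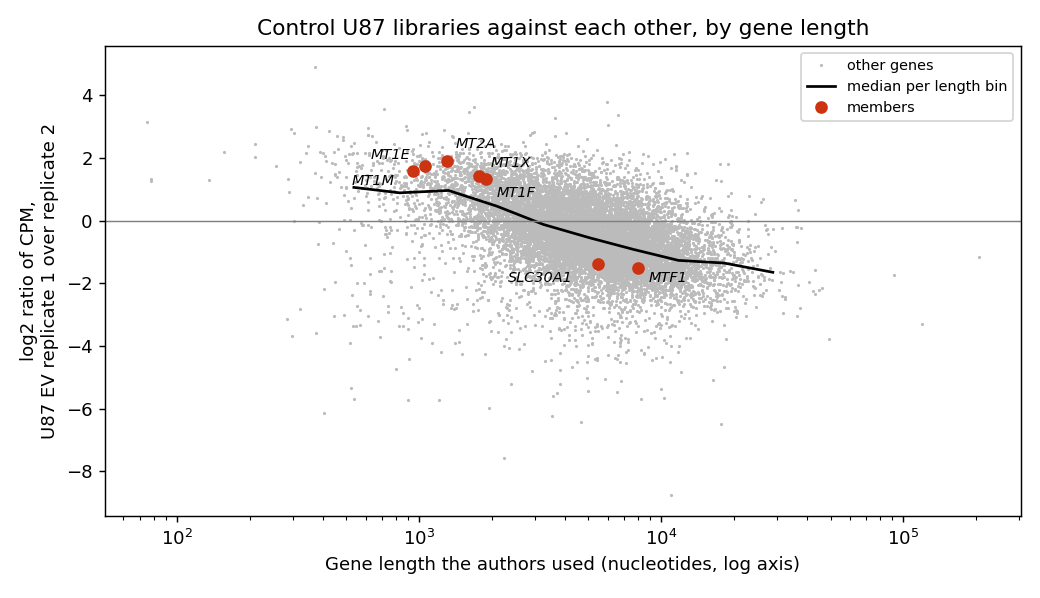
Each point is 1 of 12845 genes with a mean of at least 25 counts. The x axis gives the gene length behind the deposited FPKM (nucleotides, log axis), and the y axis the log2 ratio of CPM in U87 EV replicate 1 over replicate 2. The black line joins medians of length bins of at least 25 genes and is lower for long than for short genes, with the 5 metallothioneins (red) above 1 and MTF1 and SLC30A1 below -1.

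MT2A was the most highly expressed of these genes in every library, on the FPKM scale (CPM divided by the gene length in kilobases). It stood at 244, 236 and 223 FPKM in SNB19 NC cells and at 548, 553 and 528 in siMEOX2 cells. In U87 cells it stood at 3857 and 1027 FPKM in the EV libraries and at 904 and 1016 in the OE libraries. All 3 siMEOX2 libraries were thus above all 3 NC libraries, and U87 EV replicate 2 lay next to the OE libraries. All 7 metallothionein genes together with a row made up 299 to 325 CPM in NC, 702 to 733 CPM in siMEOX2, 5422 and 1462 CPM in EV, and 1255 and 1412 CPM in OE libraries. MT2A supplied 96.9% to 98.0% of these counts in SNB19 cells and 91.2% to 93.5% in U87 cells.

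The second metallothionein differed between the lines. MT1E, a widely inducible isoform, had 3, 0 and 0 counts in SNB19 NC cells and 2, 0 and 0 in siMEOX2 cells. In U87 cells the same gene had 5639 and 1474 counts in the EV libraries and 834 and 1137 in the OE libraries, which is 332 and 99.7 FPKM against 63.3 and 73.8 FPKM. MT1M, another isoform of the cluster, followed it, with at most 2 counts in any SNB19 library, 181 and 52 counts in EV and 21 and 20 counts in OE libraries. MT1L, the only further metallothionein gene or pseudogene with a mean of at least 10 counts, had 0 counts in all NC libraries, 2 counts over the siMEOX2 libraries, 905 and 210 in EV and 86 and 103 in OE libraries. SNB19 libraries thus held next to no reads of the 3 neighbouring genes MT1L, MT1E and MT1M at these depths, whatever the siRNA.

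MT1F and MT1X were detected in both lines at lower levels. MT1F stood at 3.71, 4.44 and 4.30 FPKM in NC, 6.74, 6.63 and 6.76 in siMEOX2, 21.8 and 8.62 in EV, and 5.36 and 5.79 in OE libraries. MT1X stood at 0.477, 0.370 and 0.690 FPKM in NC, 1.22, 1.256 and 1.60 in siMEOX2, 4.92 and 1.85 in EV, and 1.62 and 1.73 in OE libraries. For both genes the siMEOX2 values lay above the NC values, and EV replicate 1 was the highest of the 10 libraries. MT1G, an isoform read from the opposite strand, had 13 and 3 counts in the EV libraries, 1 count in NC replicate 1 and 0 elsewhere. MT1A had 1 count in each of 2 NC libraries and 0 in the other 8 libraries, so neither passed the filter on low counts.

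MTF1 and SLC30A1 were detected in all 10 libraries, at levels whose ranges overlapped between the lines. MTF1 stood at 6.78, 6.87 and 7.46 FPKM in NC, 8.52, 11.5 and 10.8 in siMEOX2, 1.80 and 5.09 in EV, and 7.95 and 7.39 in OE libraries. SLC30A1 stood at 15.0, 15.5 and 14.3 FPKM in NC, 18.8, 20.5 and 19.8 in siMEOX2, 6.35 and 16.4 in EV, and 21.8 and 20.3 in OE libraries. EV replicate 1 was the lowest library for both genes. Per length, SLC30A1 ranked second after MT2A in SNB19 cells, and MT1E took that place in U87 cells. The length matters to such ranks: the deposited FPKM of MT1X divides by 1773 bases, the union of its exons, whereas its first transcript has 450 bases, and CPM per kilobase of that transcript averaged 2.02 in NC cells, against 0.512 on the FPKM scale.

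**Figure D2:**
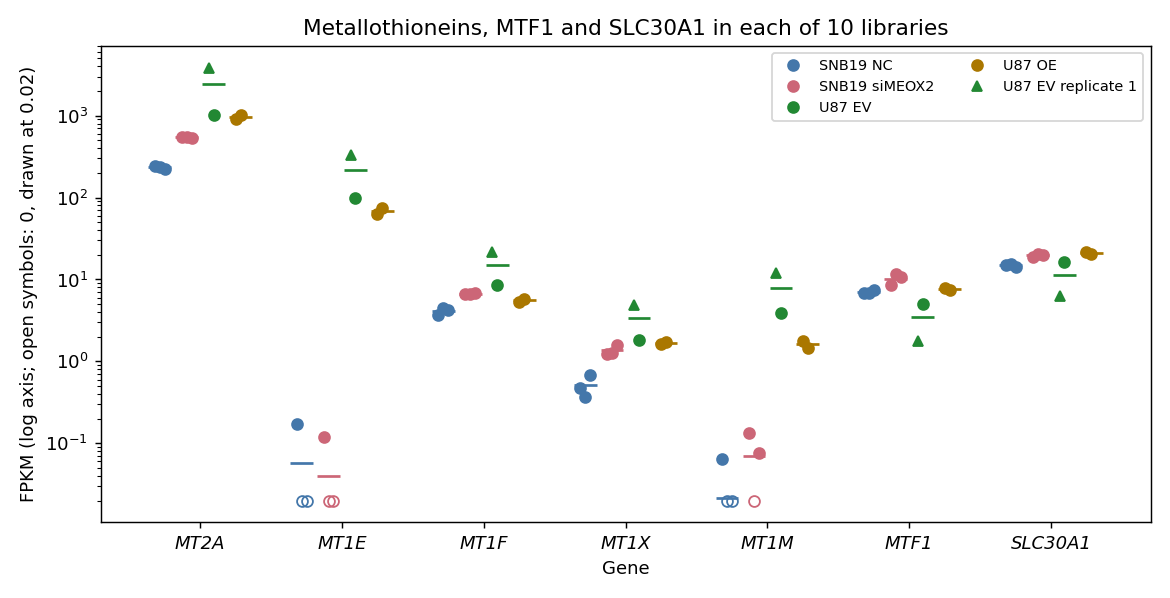
FPKM (log axis) of 7 genes in each of the 10 libraries, with short lines for group means. Open symbols are values of 0, drawn at 0.02, and the triangle is U87 EV replicate 1, the highest library for the 5 metallothioneins and the lowest for MTF1 and SLC30A1.

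The comparison of siMEOX2 with NC asked which of these genes responded to loss of MEOX2 in SNB19 cells. All 5 genes with enough counts to be tested were higher after knockdown. Changes were widespread in this comparison: of 15525 genes tested, 27.4% were called higher and 28.5% lower at FDR 0.05 (55.9% either way), and 30.4% had siMEOX2 libraries all above the NC libraries in TMM-scaled CPM. MT2A more than doubled, from 234 ± 10.5 to 543 ± 13.2 FPKM (SD, n = 3), with a log2 fold change of 1.14 (SE 0.05, FDR 1.12e-13, edgeR quasi-likelihood test), or 2.20-fold. In bulk RNA, more cells expressing a gene and more RNA per cell cannot be told apart. MT1X rose from 14, 9 and 19 counts to 34, 32 and 40, a log2 fold change of 1.31 (SE 0.31, FDR 0.00130, edgeR) that rests on the lowest counts of the set. MT1F rose less, from 116, 115 and 126 counts to 200, 180 and 180, a log2 fold change of 0.62 (SE 0.12, FDR 1.96e-04, edgeR).

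MTF1 rose 1.38-fold after knockdown, from 901, 756 and 929 counts to 1074, 1330 and 1216, a log2 fold change of 0.47 (SE 0.08, FDR 6.92e-05, edgeR). For MTF1 siMEOX2 replicate 1 was the lowest of its group, at 68.4 CPM against 92.6 and 86.3 CPM, and all 3 lay above the NC range of 54.4 to 59.9 CPM. SLC30A1 rose 1.25-fold, from 1360, 1165 and 1219 counts to 1613, 1610 and 1529, a log2 fold change of 0.32 (SE 0.06, FDR 8.56e-05, edgeR), the smallest change of the 5. The NC and siMEOX2 libraries did not overlap in CPM for any of the 5 genes. In a fit of all 10 libraries together, which takes the spread of the U87 libraries into the estimate, none of the 5 kept its call, and the FDR of MT2A was 0.128. The same fit without U87 EV replicate 1 kept all 5 calls, with an FDR of 3.35e-15 for MT2A.

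**Figure D3:**
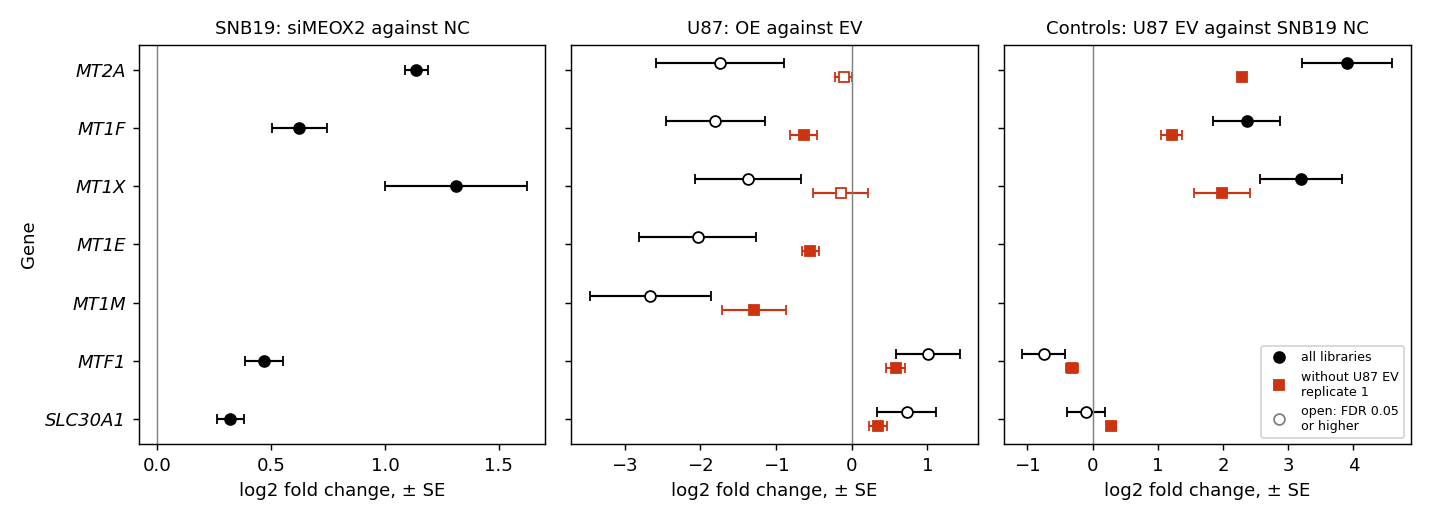
Log2 fold changes with SE bars for 3 comparisons (x axes differ in scale): siMEOX2 against NC, OE against EV and EV against NC, in black with all libraries and in red without U87 EV replicate 1. Filled symbols have FDR under 0.05, and red values rest on 1 EV library; MT1E and MT1M are left out of the last panel because SNB19 NC cells had 3 counts and 1 count of them. In U87 cells the MT2A change moved from -1.74 to -0.11 when that library was left out.

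Zinc exporter genes were called in SNB19 cells at about the background shares of 27.4% higher and 28.5% lower. Of 7 tested, 2 rose (SLC30A1 and SLC30A4, the latter by 0.35 on the log2 scale) and 2 fell (SLC30A9, log2 fold change -0.30, and SLC30A6, -0.32), with a list median of 0.10 against 0.01 over all genes tested. Of 10 zinc importer genes, 2 rose and 4 fell on the same background, with a median of -0.10. SLC39A14 (ZIP14), an importer of zinc and non-transferrin iron, rose from 199, 193 and 198 CPM to 398, 470 and 486 CPM, a log2 fold change of 1.12 (SE 0.06, FDR 2.44e-12, edgeR). SLC39A10 (ZIP10), an importer known to be repressed through MTF1, fell from 52.5, 53.8 and 61.7 CPM to 30.9, 33.8 and 31.3 CPM, a log2 fold change of -0.88 (SE 0.08, FDR 4.83e-09, edgeR). SLC39A13, which serves the secretory pathway, and SLC39A9 fell as well, with log2 fold changes of -0.82 and -0.64.

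All 5 tested genes of a list tied to MTF1 outside the set changed, 3 upward and 2 downward, against 55.9% of all genes either way. GCLC, the catalytic subunit of glutathione synthesis, rose by 0.37 on the log2 scale, and SELENOH, a selenoprotein, by 0.32. SLC39A10 fell, as above, and SELENOW, another selenoprotein, had a log2 fold change of -0.26. The fifth, the growth factor gene PGF, rose from 19.3 to 20.3 CPM in NC to 23.6 to 26.6 CPM in siMEOX2 libraries. The direction was thus not shared across the list, which includes SLC39A10, named above as repressed through MTF1. The part of MTF1 in these changes was not tested.

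Among 9 tested genes known to be induced by glucocorticoids, 6 rose and 2 fell, against the background of 27.4% and 28.5%, with a median log2 fold change of 0.87. CEBPD, a transcription factor of the acute phase, rose from 11.7, 15.4 and 9.79 CPM to 45.6, 42.3 and 44.6 CPM, a log2 fold change of 1.78 (SE 0.11, FDR 3.88e-11, edgeR). TSC22D3 (GILZ), an anti-inflammatory leucine zipper protein, rose by 1.53 on the log2 scale, DUSP1, a MAP kinase phosphatase, by 1.08, and ERRFI1, an inhibitor of the EGF receptor, by 0.87. FKBP5 and SGK1, also of this list, fell, with log2 fold changes of -0.23 and -0.57.

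The other lists in SNB19 cells are read against the same background of 27.4% higher and 28.5% lower. Of 9 genes of the cadmium and heat shock response 2 rose and 6 fell, with a median of -0.46. The chaperones HSPA1B, DNAJB1 and HSPA8 had log2 fold changes of -1.97, -1.20 and -0.78, while TXNRD1, thioredoxin reductase, rose by 0.44. Among 10 copper genes 2 rose and 3 fell, about the background shares. The copper importer SLC31A1 (CTR1) rose by 0.70 and SCO1, a copper chaperone of cytochrome oxidase, by 0.32, whereas the metalloreductase STEAP3 and the copper exporter ATP7A had log2 fold changes of -0.68 and -0.31. Among 9 iron genes 3 rose, namely the transferrin receptor TFRC (0.63), the iron importer SLC11A2 (0.72) and the iron regulatory protein gene IREB2 (0.50), and 5 fell, among them the ferritin light chain FTL (-0.47).

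Genes around the metallothionein cluster and a list of housekeeping genes with small products moved both ways. Of 12 tested neighbours on chromosome 16, 5 rose and 4 fell, with HERPUD1, an endoplasmic reticulum stress gene, rising by 1.12 on the log2 scale and CPNE2 and FAM192A at -0.51 and -0.43. Of 15 genes of the housekeeping list, of which DYNLL1 has an exon length of 2957 bases and ATP5ME did not exceed 1.46 CPM in SNB19 cells, 3 rose and 8 fell, with a median of -0.35 and LGALS1, S100A11, S100A6 and TMSB10 at -1.57, -0.86, -1.04 and -0.70. The share of counts from genes under 2 kb was 10.5% to 10.6% in NC and 9.95% to 10.8% in siMEOX2 libraries. The summed level of 4 endothelial markers, led by PECAM1, was 41.8 to 46.3 CPM in NC and 11.1 to 12.6 CPM in siMEOX2 libraries, although KDR of this list stood at 2.11 to 3.62 CPM in NC and 2.93 to 4.52 CPM in siMEOX2 libraries. Epithelial markers, led by CDH1, summed to 1.68 to 2.84 CPM in NC and 5.28 to 5.68 CPM in siMEOX2 libraries. Melanocyte markers, led by PMEL, summed to 2.04 to 3.74 and 7.26 to 8.73 CPM. MLANA of the melanocyte list stood at 0.948 to 1.51 CPM in NC and 0.696 to 1.02 CPM in siMEOX2 libraries. KRT5 of the epithelial list stood at 0.322 to 0.423 and 0.255 to 0.284 CPM. The sum of 8 glioma and mesenchymal markers, led by VIM, was 1672 to 1702 CPM in NC and 784 to 819 CPM in siMEOX2 libraries. OLIG2 of this list stood at 3.80 to 3.93 CPM in NC and 5.11 to 6.75 CPM in siMEOX2 libraries. The part of these marker changes in the metallothionein values was not tested.

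**Figure D4:**
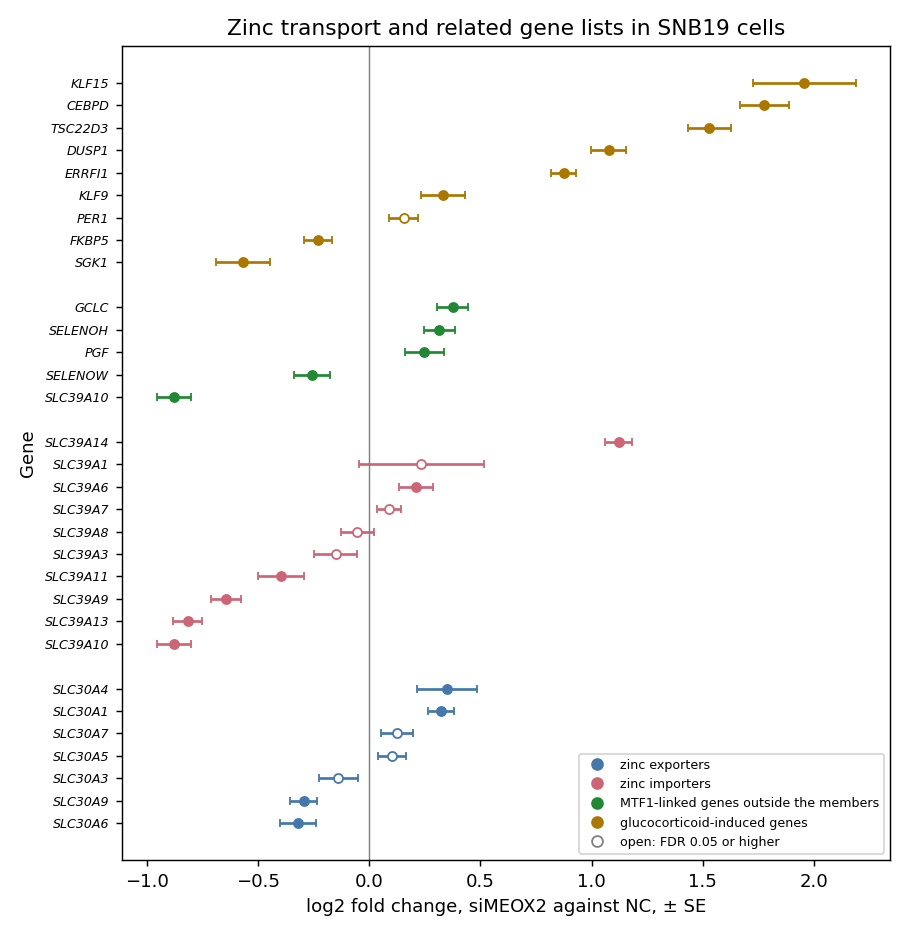
Log2 fold changes (x axis, SE bars) of tested genes of 4 lists, siMEOX2 against NC in SNB19 cells, 1 row a gene and 1 colour a list. Filled points have FDR under 0.05. Exporters and importers lie on both sides of 0, and SLC39A14 and SLC39A10 mark the ends of the importer list at 1.12 and -0.88.

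The comparison of OE with EV asked the converse question in U87 cells, in which MEOX2 was added. No gene of the set was called in either direction by the main edgeR test. Here the background was 0% higher and 0% lower of 14180 genes tested by edgeR at FDR 0.05, and MEOX2 itself, with no counts in EV, had an FDR of only 0.123. At an unadjusted p under 0.05, 2643 genes stood out, 2 of them in the set (MT1M and MT1F), and DESeq2 called 318 genes higher and 597 lower, among them MT1E and MT1M as lower. MT2A had a log2 fold change of -1.74 (SE 0.85, FDR 0.325, edgeR), MT1E -2.04 (SE 0.78, FDR 0.270), MTF1 1.00 (SE 0.42, FDR 0.293) and SLC30A1 0.73 (SE 0.39, FDR 0.352). The 15 housekeeping genes above had a median of -1.83 here, against -1.74 for the set, and -0.14 against -0.15 without EV replicate 1. The sum of 8 glioma and mesenchymal markers was 4291 and 2203 CPM in EV and 1344 and 1317 CPM in OE libraries. OLIG2 of this list went the other way, at 5.38 and 4.69 CPM in EV and 21.8 and 19.9 CPM in OE libraries. The part of these marker changes in the set was not tested.

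Without EV replicate 1 the picture for MT2A changed. EV replicate 2 had 1334 CPM of MT2A and the OE libraries 1174 and 1319 CPM, a log2 fold change of -0.11 (SE 0.11, FDR 0.438, edgeR), and MT1X stood at -0.15 (SE 0.36, FDR 0.767). In this fit a single EV library remained, so its spread was assumed to equal that of the OE libraries, and 23.3% of 14875 genes were called higher and 24.2% lower. Of the 7 genes tested, 2 were called higher and 3 lower. The latter were MT1E, which went from 105 CPM to 66.5 and 77.7 CPM (log2 fold change -0.55, SE 0.11, FDR 7.67e-06), MT1F (-0.64, SE 0.17, FDR 8.00e-04) and MT1M (-1.30, SE 0.42, FDR 0.00608). MT1L, the neighbouring pseudogene, was lower too, from 14.9 CPM to 6.86 and 7.04 CPM (-1.11, SE 0.19, FDR 4.04e-08). With EV replicate 1 as the lone control instead, MT2A stood at -2.45 and was called lower, as were the other 4 tested metallothioneins, while MTF1 stood at 1.65 and SLC30A1 at 1.28.

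MTF1 and SLC30A1 were the genes called higher in U87 OE cells once EV replicate 1 was left out. MTF1 went from 40.8 CPM to 63.8 and 59.3 CPM, a log2 fold change of 0.58 (SE 0.13, FDR 2.74e-05, edgeR). SLC30A1 went from 89.8 CPM to 119 and 111 CPM, a log2 fold change of 0.35 (SE 0.11, FDR 0.00723, edgeR). Both had also risen in SNB19 cells upon MEOX2 knockdown, by 0.47 and 0.32. Whether the responses of the lines differ was not tested.

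No gene of the transport lists was called in U87 OE cells with both EV libraries, so the counts below come from the fit without EV replicate 1, which has 1 control library and a background of 23.3% higher and 24.2% lower. Of 11 zinc importer genes 1 was higher and 4 were lower: SLC39A4, an importer of dietary zinc in the gut, went from 11.4 CPM to 19.1 and 25.1 CPM (log2 fold change 0.95), and SLC39A10 from 46.5 CPM to 16.5 and 19.5 CPM (log2 fold change -1.37, SE 0.14, FDR 3.00e-22, edgeR). Of 7 exporter genes only SLC30A1 was called. The importer SLC39A11 had a log2 fold change of -0.85 without EV replicate 1. With both EV libraries it stood at -0.97 (SE 0.26, FDR 0.205, edgeR). SLC39A4 and SLC39A10 depend more on that choice. EV replicate 1 had 14.7 CPM of SLC39A10, and with it the log2 fold change was -0.90 (SE 0.47, FDR 0.350). It had 33.4 CPM of SLC39A4, above both OE libraries, and with it the log2 fold change was -0.39 (SE 0.70, FDR 0.754). Of 10 iron genes 7 were higher and 1 was lower, with the ferritin heavy chain FTH1 at 1.24, FTL at 0.94 and the heme oxygenase HMOX1 at 1.80 on the log2 scale. With EV replicate 1 included, FTH1 stood at 0.98, FTL at -0.14 and HMOX1 at 1.62, and none was called. The 9 tested glucocorticoid-induced genes had a median log2 fold change of 0.40 without EV replicate 1, against 0.01 over all genes. With that library the medians were 0.25 and -0.06.

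The third comparison set control U87 EV cells against control SNB19 NC cells, for the level of the genes in each line before any change in MEOX2. Line, transfection reagent and vector go together in it and cannot be told apart. Of 7 genes tested, 5 were higher in U87 EV cells, against a background of 20.0% higher and 21.4% lower among 16158 genes tested. MT2A had a log2 fold change of 3.90 (SE 0.69, FDR 0.00962, edgeR), MT1X 3.19 (SE 0.63, FDR 0.0135) and MT1F 2.36 (SE 0.52, FDR 0.0187). Without EV replicate 1, a single EV library stood against 3 NC libraries, whose spread it was assumed to share. The MT2A change was then 2.29, that is 4.88-fold instead of 15.0-fold, and MT1X and MT1F stood at 1.98 and 1.22, with a background of 34.5% higher and 36.3% lower of 16833 genes. Of the 15 housekeeping genes above, 6 were higher and none lower in this comparison, and 8 higher and 4 lower without EV replicate 1. Leaving out an NC library ended the calls of MT2A and MT1F whichever it was, with an FDR of up to 0.0552 for MT2A, and that of MT1X without replicate 1 or 2. The direction stayed the same in each case.

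Of the 9 genes, MT1E and MT1M had the largest ratios between the lines. For MT1E, 7113 counts over the EV libraries against 3 over the NC libraries gave a CPM ratio of 3594 (95% exact interval 1229 to 17431, counting error only). Without EV replicate 1, 1474 counts against 3 gave 1601 (547 to 7771). For MT1M, 233 counts against 1 gave 353 (62.8 to 14009), and 52 against 1 gave 169 (29.1 to 6819) without that replicate. MT1L, with 0 counts in NC cells, was at least 563-fold higher in EV cells and at least 228-fold higher without replicate 1, from a floor of 3 counts over the NC group. The lowest bound of the MT1E and MT1M intervals was thus 29.1, that of MT1M without replicate 1. MT1G, below the filter, had 16 counts over the EV libraries against 1 over the NC libraries, a ratio of 24.3 (3.77 to 1017). With no filter it was called higher (log2 fold change 4.56, FDR 0.0261, edgeR), as it was by DESeq2 (4.92, FDR 0.0259).

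MTF1 and SLC30A1 were not called in this comparison when all libraries were used. MTF1 had a log2 fold change of -0.75 (SE 0.33, FDR 0.123, edgeR) and SLC30A1 of -0.10 (SE 0.29, FDR 0.797) in U87 EV against NC cells. Without EV replicate 1 MTF1 stood at -0.31 and was called lower (FDR 0.00258, edgeR), and SLC30A1 changed sign, to 0.29, and was called higher (FDR 5.60e-04). These calls rest on 1 EV library, whose own spread is unknown. Both sizes were far below those of the metallothioneins. With all libraries, 9 of 11 zinc importer genes tested were higher in U87 EV cells and none lower, against 20.0% and 21.4% of all genes. Their median log2 fold change was 1.06, and 0.96 without EV replicate 1. Of 8 exporters 1 was higher and 2 were lower, about those background shares. The exporter median was -0.33, and 0.01 without that library. SLC39A8 and SLC39A6 stood at 1.28 and 1.37 on the log2 scale (1.32 and 1.48 without EV replicate 1), and SLC39A4 had no count in any NC library, against 33.4 and 11.4 CPM in the EV libraries. SLC30A3, a vesicular exporter, showed the reverse, at 20.7 to 21.1 CPM in NC cells and 0.124 and 0 CPM in EV cells.

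Ratios between 2 genes within a library do not depend on its total count. They can still carry the length trend of EV replicate 1 where the gene lengths differ, as for MT1L (411 bases), MT1E (1052) and MT2A (1299). The part of that trend in the ratios was not tested. For every 100 MT2A counts, U87 cells had 6.96 and 7.86 MT1E counts in the EV libraries and 5.67 and 5.89 in the OE libraries, so EV replicate 1 lay between the others in this ratio. For every 100 MT1E counts there were 16.0 and 14.2 MT1L counts in EV and 10.3 and 9.06 in OE libraries, and 3.21 and 3.53 MT1M counts in EV and 2.52 and 1.76 in OE libraries. In these 3 ratios the EV and OE libraries did not overlap, replicate 1 included. They did overlap for MT1F, with 0.820 and 1.22 counts per 100 MT2A counts in EV and 0.863 and 0.829 in OE libraries, and for MT1X, with 0.174 and 0.245 in EV and 0.245 and 0.233 in OE libraries. In SNB19 cells MT1F made 2.21, 2.73 and 2.80 counts per 100 MT2A counts in NC and 1.79, 1.74 and 1.86 in siMEOX2 libraries, which did not overlap. MTF1 made 66.2, 64.9 and 76.2 counts per 100 of SLC30A1 in NC and 66.6, 82.6 and 79.5 in siMEOX2 libraries, which overlapped. With 2 or 3 libraries a group, these ratios are descriptions without a test.

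The genes most like MT2A across the 10 libraries were named by the correlation of log2 CPM, among 10770 genes with a mean of at least 100 counts. They were PRDX4, a peroxiredoxin of the endoplasmic reticulum (Pearson r = 0.992), ENTR1 (0.990), BRK1, a subunit of the WAVE complex (0.990), the antisense RNA TBX2-AS1 (0.990) and COQ4, of coenzyme Q synthesis (0.989). Those most like MTF1 were PHACTR2 (0.988), GNE, an enzyme of sialic acid synthesis (0.987), the RNA helicase DDX21 (0.987), the nuclear pore gene NUP58 (0.985) and SH3PXD2B (0.985). The libraries fall into separate lines and share EV replicate 1 as an extreme, and the genes were picked as the highest of many, so these values describe the data only. PRDX4, for instance, stood at 39.0 to 44.5 CPM in NC, 61.2 to 70.7 in siMEOX2, 241 and 118 in EV, and 89.4 and 104 in OE libraries, the order of groups seen for MT2A.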

How the data were processed

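The authors aligned paired 150-base reads from polyA-selected NEBNext Ultra libraries to GRCh38 with HISAT2 and deposited HTSeq 0.11.2 counts per gene, with FPKM beside them. DESeq2 1.26.0 is also named in the submitters' processing notes. Counting options and annotation release are not given in the sources used here. The kit does not mark strand, so overlapping genes cannot be separated. The deposited FPKM equal CPM per kilobase: the length implied by counts and FPKM agreed within 1% across the libraries with reads, for all 34567 genes. For the genes of the set with a row, that length equalled the GENCODE v29 exon union. Other genes were not compared with GENCODE. Each comparison used edgeR 4.0.16 (R 4.3.3) on the counts of its own groups: filterByExpr, TMM, the quasi-likelihood test, and Benjamini-Hochberg adjustment over all genes tested, threshold 0.05. SE is the log2 fold change over the root of F. Scripts were tested on simulated data. The genes, lists and tests were chosen with earlier results of these data known. All 10 genes were named, with other metallothioneins of a mean of at least 10 counts, at most 4 called genes per list and comparison with the smallest p, and the 5 most correlated genes; others, chosen after their values were seen, complete a count. Library totals of 12533775 to 16560324 counts set the precision. Alternatives were DESeq2 1.42.0, other filters, joint fits, length offsets, replicate blocks and leaving out each library. Replicate numbers did not pair samples.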

Additional observations from a re-analysis of the deposited data

How the results depend on the processing

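The lines were compared with 2 or 3 libraries a group, and leaving out U87 EV replicate 1 moved the sizes of the U87 changes and the calls. In OE against EV the tested genes of the set kept direction whichever library was left out. In SNB19 cells the 5 genes kept direction in every fit that tested them, and MT1X was not tested at a minimum mean of 50 counts. Their calls were lost in the fit of all 10 libraries, which called 1210 genes higher, 1515 lower and 0 of the set. The study's rule (fold above 2, unadjusted p) gave 866 higher, 803 lower and 2 of the set, so 3 lost their call; leaving out 1 library gave 3703 to 4440 higher, 3959 to 4662 lower and 5 of the set throughout. In U87 cells, against 0 calls in the main test, DESeq2 called 318 higher and 597 lower (set: 2 lower), the study's rule 878 and 1282 (2 lower), no filter 611 and 1252 (4 lower), the fit of all 10 libraries 1951 and 2587 (1 higher, 4 lower), that fit without EV replicate 1 3741 and 3376 (2 and 2), and length-trend offsets 15 and 7 (none). Leaving out 1 library gave 29 to 5367 higher and 9 to 5249 lower, with 0 to 2 of the set higher and 0 to 5 lower; the highest counts came without EV replicate 2, where only replicate 1 remained as control, and without EV replicate 1 they were 3459 and 3593. Replicate numbers did not pair samples (correlations of deviations 0.003, -0.012 and 0.058 in SNB19, -0.24 in U87). A replicate block gave 4194 higher and 4407 lower in SNB19 (5 of the set), and 211 and 257 in U87 (1 lower). The replicate block with length-trend offsets gave 4573 and 4313 in SNB19, and 173 and 178 in U87. The crossed replicate block in U87, chosen after seeing the data, gave 506 and 646 (3 lower). In the EV against NC numbers below, the brackets do not list every call of the set. At least 2 of the set were called higher in each alternative of that comparison. Where a setting has a single genome-wide count, the count in the other direction is left out. For EV against NC, the fit of all 10 libraries called 4985 higher (set: 1 lower), that fit without EV replicate 1 5668 and 5952 (1 lower), and a minimum mean of 50 counts 2299 lower (3 of the set higher). Leaving out 1 library gave 1312 to 6303 higher and 1932 to 7326 lower, with 2 to 6 of the set higher and 0 to 2 lower, the lowest numbers without an NC library. SLC30A1 turned from -0.10 to 0.29 without EV replicate 1, in both fits, within a range of -0.66 to 0.29 over the libraries left out. The causes were not tested.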
